A study of Mus musculus with 30 samples.

Results

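The transcripts of 10 myosin heavy chain genes were followed in C2C12 myotubes, namely Myh1, Myh2, Myh3, Myh4, Myh6, Myh7, Myh7b, Myh8, Myh9 and Myh10. They were taken by gene symbol from a count table of 55487 Ensembl genes, and all 10 passed the filter on low counts. C2C12 is a mouse myoblast line whose cells fuse into multinucleated myotubes when serum is reduced. All cells were wild type and were differentiated for 4 days in 2% horse serum (2% HS) in low-glucose medium. The myotubes were then kept for 4 further days in 2% HS, in serum-free medium (serum deprivation, SD), in SD with 100 nM metformin (MET), in SD with 500 nM leucine (LEU), or in SD with both (MET+LEU). Each group had 6 libraries of ribosomal RNA-depleted total RNA, made with a stranded kit. The sources used here do not say whether replicates came from separate cultures, so p-values measure the spread between these libraries, which may be technical. A single cell line was used, cultured without nerve or load.

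Myosin heavy chains are the motor subunits of the thick filament. Each pairs with a second heavy chain and with light chains, and its isoform sets how fast a fibre shortens and how much ATP it uses. In mouse muscle, Myh3 (embryonic) and Myh8 (perinatal) are made during development and regeneration. Myh2, Myh1 and Myh4 encode the adult fast chains 2A, 2X and 2B. Myh7 encodes the slow, beta-cardiac chain, Myh6 the alpha-cardiac chain, and Myh7b an ancient relative that is expressed at low level in heart and slow muscle. Myh9 and Myh10 encode the non-muscle chains NM2A and NM2B, which drive cell shape, adhesion and division and are present in myoblasts and in other cells of a culture.

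Libraries held between 12784960 and 19604103 counts, and the 10 genes took between 0.548% and 0.768% of them. MET+LEU replicate 6 stood apart. Nuclear ribosomal RNA took 5.85% of its counts and mitochondrial ribosomal RNA 7.64%, against at most 1.96% and 0.760% in any other library, and it had the highest level of 9 of the 10 genes. Values without this library are therefore given beside the results that rest on it. Defining myotube markers (Ckm, Acta1, Ttn, Myog) were expressed in every group, while 4 of 6 cardiac markers reached at most 5 counts in any library. In whole-culture RNA, fewer myotubes and less transcript per myotube cannot be told apart.

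Sarcomeric genes lie in clusters, given here in GRCm38 coordinates. Myh3 (chr11:67078300-67102291), Myh2 (chr11:67171027-67197517), Myh1 (chr11:67200052-67224575), Myh4 (chr11:67238029-67260446) and Myh8 (chr11:67277124-67308634) follow each other on the plus strand of chromosome 11. Myh6 (chr14:54941921-54966927) and Myh7 (chr14:54970684-54994626) are neighbours on the minus strand of chromosome 14. Myh7b (chr2:155611212-155634307, plus strand), Myh9 (chr15:77760587-77842175, minus strand) and Myh10 (chr11:68691559-68816632, plus strand) stand alone.

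A group of neighbours on chromosome 11 shares letters upstream of their RefSeq start sites, and these stretches are shown because members of this cluster moved differently when serum was removed. Each is 85 bases of the plus strand in GRCm38.p6. Capitals mark TTCTAATTATATCC, the longest run shared by all 4 windows, and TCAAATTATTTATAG, the longest shared by those of Myh1, Myh4 and Myh8.
Myh1, chr11:67199876-67199960: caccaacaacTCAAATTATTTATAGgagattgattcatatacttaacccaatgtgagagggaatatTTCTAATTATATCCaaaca
Myh2, chr11:67170836-67170920: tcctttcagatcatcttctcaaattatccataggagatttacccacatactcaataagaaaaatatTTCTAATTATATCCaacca
Myh4, chr11:67237588-67237672: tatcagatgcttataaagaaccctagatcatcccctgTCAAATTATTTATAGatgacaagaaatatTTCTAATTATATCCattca
Myh8, chr11:67277004-67277088: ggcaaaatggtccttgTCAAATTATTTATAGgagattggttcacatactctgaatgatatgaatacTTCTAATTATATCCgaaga

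Both runs were found by comparing these windows with each other. They were then searched on both strands of the 250 bases before each start site. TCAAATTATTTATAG was found in 3 of 32851 windows (0.00913%), those of Myh1, Myh4 and Myh8. It contains the letters of a MEF2 site, the motif bound by the myocyte enhancer factors 2, which 2.92% of windows held. TTCTAATTATATCC was found in 4 windows (0.0122%), those of Myh1, Myh2, Myh4 and Myh8. In Myh3, the embryonic gene at the end of the cluster, neither run was found in this window. TATAAA on the gene's strand was found in Myh1, Myh3 and Myh4 and in 7.59% of all windows. A match is a description of letters and not a binding site. Myh8 held both runs, as Myh1 and Myh4 did, and of these 3 genes only Myh1 and Myh4 were downregulated in SD vs. 2% HS. The part of these letters in the responses was not tested.

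The coding sequences themselves are so alike that reads can match more than one gene, which bears on the accuracy and precision of each count. Between coding sequences, identity was 91.6% for Myh6 and Myh7, 91.1% for Myh1 and Myh2, 90.2% for Myh1 and Myh4, and 74.4% for Myh9 and Myh10. Of all 100-base stretches of a transcript, 11.4% in Myh6, 11.2% in Myh7, 9.73% in Myh1, 9.17% in Myh2, 6.61% in Myh8, 3.85% in Myh4 and 1.15% in Myh3 occurred unchanged in a transcript of another gene. The same share was 0.314% in Myh9, 0.300% in Myh10 and 0 in Myh7b. How the counting treated such reads is not given in the sources used here. Myh6 had a median of 292 counts against 3155 for Myh7, and the part of shared reads in the Myh6 counts is not known. Reads were paired, 150 bases from each end, and the share of 150-base stretches was 5.53% in Myh6 and 2.49% in Myh1. A coding stretch of 155 bases is identical in Myh1, Myh2 and Myh8 (in Myh1, chr11:67213332-67213597, across exons 23 and 24), and one of 245 bases is identical in Myh6 and Myh7 (in Myh6, chr14:54948327-54948725, minus strand, across exons 30 and 31). They are shown because a read pair that lies wholly within them cannot be assigned to 1 gene, whereas a mate in sequence of its own can assign the pair. Capitals mark the identical part and small letters the adjoining bases of the gene named.
Myh1, shared with Myh2 and Myh8: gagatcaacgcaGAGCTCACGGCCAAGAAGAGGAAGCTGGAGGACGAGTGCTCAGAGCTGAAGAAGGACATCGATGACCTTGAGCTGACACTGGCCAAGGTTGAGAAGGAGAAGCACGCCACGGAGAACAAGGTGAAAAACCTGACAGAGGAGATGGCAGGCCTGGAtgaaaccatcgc
Myh6, shared with Myh7: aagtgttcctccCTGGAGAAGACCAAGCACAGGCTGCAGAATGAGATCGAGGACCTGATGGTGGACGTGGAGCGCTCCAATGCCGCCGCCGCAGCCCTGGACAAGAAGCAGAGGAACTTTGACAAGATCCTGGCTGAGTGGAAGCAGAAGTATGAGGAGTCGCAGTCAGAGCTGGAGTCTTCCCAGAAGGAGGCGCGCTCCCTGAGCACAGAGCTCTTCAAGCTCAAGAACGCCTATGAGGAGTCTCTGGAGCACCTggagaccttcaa

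Overlapping genes were a smaller concern for most members. Antisense Myhas at Myh1 had a median of 2 counts, and 9430073C21Rik, antisense to Myh2, had 192 against 2914 for Myh2. Trpc4ap, which overlaps Myh7b on the opposite strand, had 2247 against 386.5 for Myh7b. Since the strand setting of the counting is not given in the sources used here, it is not known whether reads of Myh2 and Myh7b were separated from those of these partners where they overlap.

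Levels are given as TMM-scaled CPM, the counts of a gene relative to those of its library, and as CPM per kilobase of merged exons where genes are compared with each other. Per kilobase, the order in 2% HS was Myh1 (365 ± 16.4 CPM per kb, SD, n = 6), Myh3 (172 ± 5.47), Myh9 (134 ± 3.65), Myh8 (56.0 ± 2.83), Myh7 (34.8 ± 3.25), Myh2 (25.3 ± 2.82), Myh4 (14.1 ± 1.13), Myh10 (5.45 ± 0.187), Myh7b (4.76 ± 0.418) and Myh6 (3.31 ± 0.257). The libraries of neighbours in this order did not overlap, other than those of Myh10 and Myh7b. The first 4 places were the same in every group. Myh7 and Myh2 exchanged the fifth and sixth places in SD, MET, LEU and MET+LEU, and their libraries overlapped in SD, LEU and MET+LEU. This exchange depended on the length used. Per kilobase of the longest transcript, Myh7 kept the fifth place in SD and LEU, and the libraries of both genes overlapped in SD, MET, LEU and MET+LEU. The place of Myh9 also depended on the length used, since its merged exons (12928 bases) are longer than its longest transcript (7433 bases). Per kilobase of the longest transcript, Myh9 stood above Myh3 in 2% HS (median 235 against 174).

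**Figure D1:**
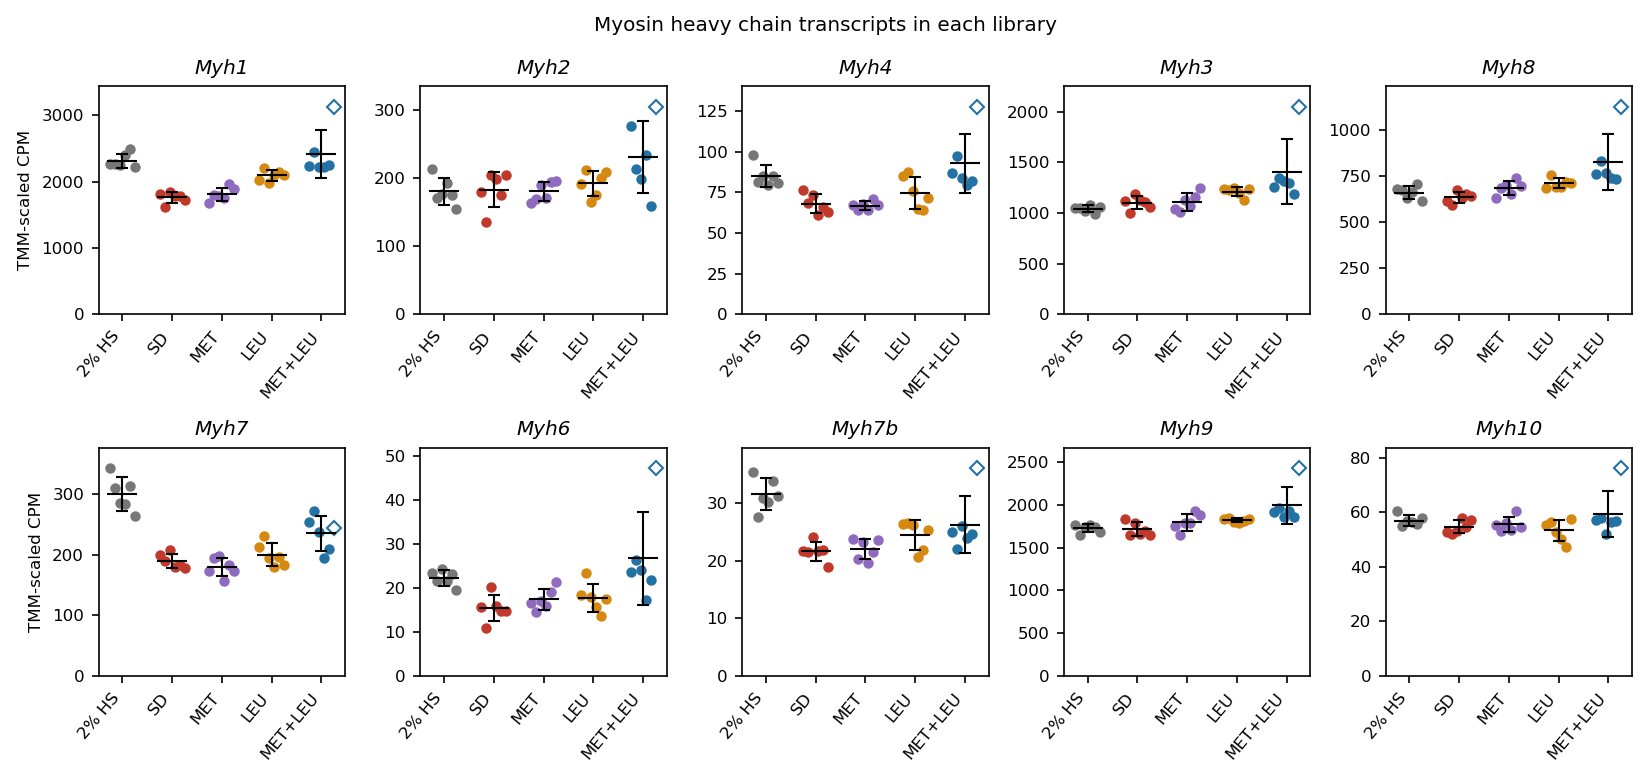
TMM-scaled CPM of each gene (y axis, from 0) in the 30 libraries, by group (x axis); points are libraries, the bar and whiskers are the mean and SD (n = 6), and the open diamond is MET+LEU replicate 6. Myh1, Myh4, Myh7 and Myh7b sit lower in every SD library than in any 2% HS library, and MET+LEU replicate 6 is the highest point for 9 of the 10 genes.

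SD vs. 2% HS asked what removal of serum did to the myotubes. Of the 10 genes, 5 were downregulated and 0 upregulated, and 13.9% of the 15907 genes tested were downregulated. The 5 were both cardiac chains (Myh7 and Myh6), Myh7b and 2 of the 3 adult fast chains (Myh1 and Myh4). Differences for the embryonic, perinatal, 2A and both non-muscle transcripts did not pass the test (quasi-likelihood test of edgeR, p adjusted by Benjamini-Hochberg over the 15907 genes, threshold 0.05). In 4 genes (Myh1, Myh4, Myh7 and Myh7b), every SD library lay below every 2% HS library, which held for 7.42% of all genes tested.

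Myh7, the slow chain, had CPM of 263 to 342 in 2% HS (median 298) and 177 to 207 in SD (median 186). The groups did not overlap, and the level was 36.9% lower in SD (log2 fold change -0.66, SE 0.08, adjusted p = 1.2e-07). Myh7b ranged from 27.6 to 35.5 CPM in 2% HS (median 31.1) and from 18.98 to 24.1 in SD (median 21.7). These groups did not overlap either, and the level was 31.4% lower (log2 fold change -0.54, SE 0.08, adjusted p = 1.9e-06). Myh6, the alpha-cardiac chain, was expressed at 19.5 to 24.2 CPM in 2% HS (median 22.5) and at 10.9 to 20.3 in SD (median 15.3). A single SD library reached into the 2% HS range, and the level was 30.7% lower (log2 fold change -0.53, SE 0.18, adjusted p = 0.0285). The call on Myh6 was lost without 2% HS replicate 3 (adjusted p = 0.0515) and without SD replicate 2 (adjusted p = 0.0696).

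Among the adult fast chains, Myh1 (2X) was the most abundant, with 2223 to 2488 CPM in 2% HS (median 2270) and 1626 to 1848 in SD (median 1782). The groups were separate, with a level 23.9% lower in SD (log2 fold change -0.39, SE 0.06, adjusted p = 1.9e-06). Myh4 (2B) had 79.6 to 98.2 CPM in 2% HS (median 83.3) and 61.3 to 76.6 in SD (median 67.3). Its groups were separate as well, with a level 19.8% lower (log2 fold change -0.32, SE 0.10, adjusted p = 0.0123). Myh2 (2A) had 155 to 213 CPM in 2% HS (median 176) and 136 to 204 in SD (median 189). Its ranges overlapped, and its log2 fold change of 0.02 had a 95% interval of -0.22 to 0.26.

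The developmental chains overlapped between both media. Myh3 had 989 to 1082 CPM in 2% HS (median 1050) and 1003 to 1190 in SD (median 1114), with a log2 fold change of 0.08 (95% interval -0.09 to 0.25). For Myh8 the ranges were 612.0 to 704 CPM (median 666) and 590 to 675 (median 637), with a log2 fold change of -0.06 (95% interval -0.20 to 0.08). Of the non-muscle chains, Myh9 had 1653 to 1769 CPM in 2% HS (median 1748) and 1650 to 1840 in SD (median 1681), and Myh10 had 54.9 to 60.4 (median 56.6) and 52.1 to 58.1 (median 54.0). Their log2 fold changes were -0.01 (95% interval -0.10 to 0.08) and -0.06 (95% interval -0.17 to 0.05).

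MET vs. SD and LEU vs. SD asked what each compound did alone. With MET, 0 of 10 genes passed the test by edgeR, DESeq2 or limma-voom, 0 had an unadjusted p under 0.05 (10% of all genes tested had one), and 0.157% of all genes tested passed in either direction. The log2 fold changes lay between -0.08 (Myh7) and 0.17 (Myh6). The largest difference that the interval for the abundant Myh1 allows is 0.15 on the log2 scale (95% interval -0.07 to 0.15), while that of the scarce Myh6 reaches 0.53.

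With LEU, 1 of 10 genes was upregulated, Myh1, and 0.233% of all genes tested were. Myh1 had 1981 to 2201 CPM in LEU (median 2104), and all 6 LEU libraries lay above the highest SD library. The level was 18.7% higher than in SD (log2 fold change 0.25, SE 0.06, adjusted p = 0.0361). Leaving out single libraries kept the log2 fold change between 0.23 and 0.27, but the call was lost in 9 of these 13 fits (without SD replicate 1, 2, 4, 5 or 6, or LEU replicate 2, 4, 5 or 6, adjusted p up to 0.0883). Without MET+LEU replicate 6, which shares the estimate of the spread, the adjusted p was 7.0e-06. Myh8 was separate in the same way, with 684 to 756 CPM in LEU (median 702), a log2 fold change of 0.16 and an adjusted p of 0.439. Of all genes tested, 0.786% had every LEU library above every SD library. The fit without MET+LEU replicate 6 also called Myh8 (adjusted p = 0.00561) and Myh3 (log2 fold change 0.14, adjusted p = 0.0472) higher in LEU.

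**Figure D2:**
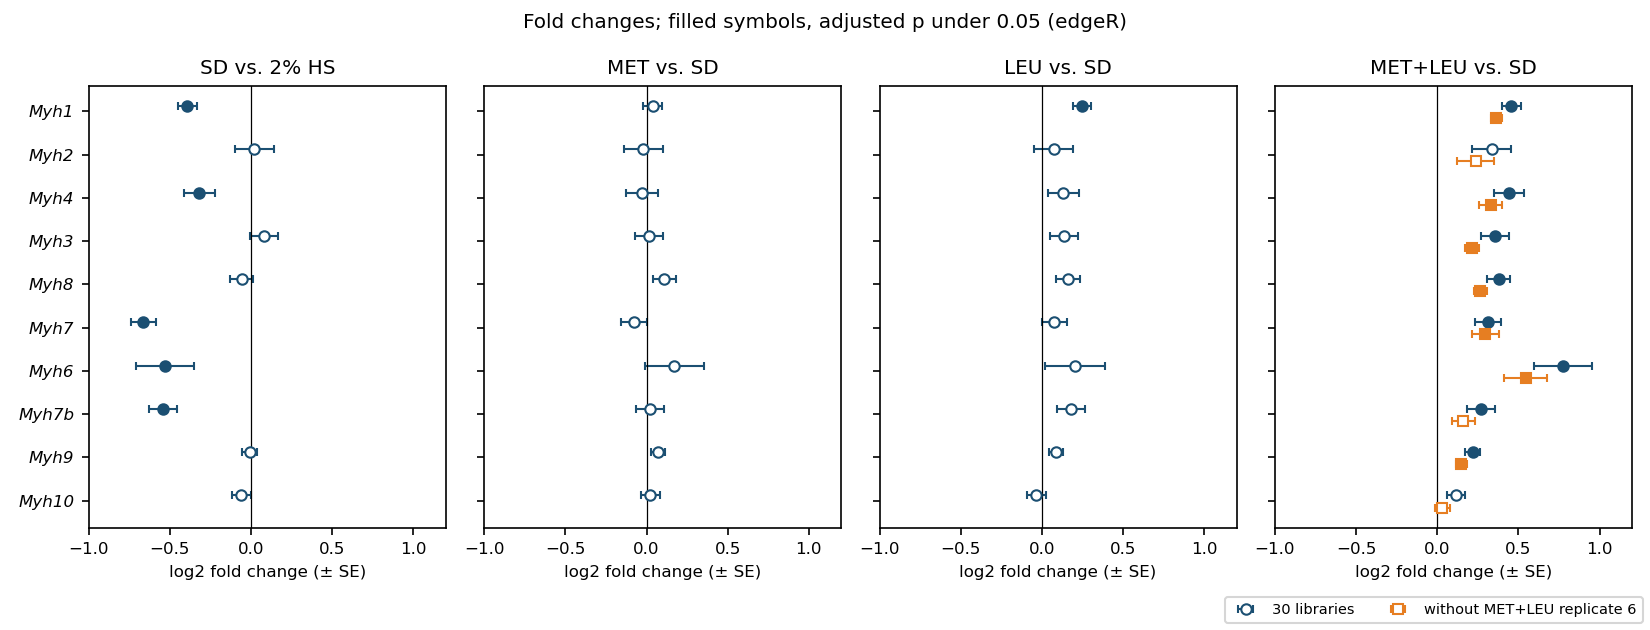
Log2 fold change (x axis, ± SE) of each gene (y axis) in 4 comparisons, with filled symbols for an adjusted p under 0.05 by edgeR; orange squares leave out MET+LEU replicate 6. SD vs. 2% HS holds 5 filled symbols, all below 0, and MET+LEU vs. SD holds 8, all above 0, of which 7 stay filled without that library.

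MET+LEU vs. SD asked what the combination did during SD. Of the 10 genes, 8 were upregulated and 0 downregulated, and 10.6% of all genes tested were upregulated. The 8 were Myh6, Myh1, Myh4, Myh8, Myh3, Myh7, Myh7b and the non-muscle Myh9. In 5 of them (Myh1, Myh3, Myh4, Myh8 and Myh9), every MET+LEU library lay above every SD library, which held for 3.41% of all genes tested. Without MET+LEU replicate 6, 7 of the 8 passed, all but Myh7b, and the fold changes of these 7 were smaller.

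Myh1 had 2218 to 3132 CPM in MET+LEU (median 2251), above all SD libraries. Its level was 37.2% higher than in SD (log2 fold change 0.46, SE 0.06, adjusted p = 1.7e-06), and its log2 fold change was 0.36 without replicate 6. Myh4 had 79.8 to 128 CPM (median 85.5), also above all SD libraries (log2 fold change 0.44, SE 0.09, adjusted p = 0.00160, and 0.33 without replicate 6). Myh2 had 160 to 305 CPM (median 224) and overlapped with SD. Its log2 fold change of 0.34 (SE 0.12) did not pass the test (adjusted p = 0.0515), and was 0.24 without replicate 6 (adjusted p = 0.189). The call on Myh2 was gained without SD replicate 6 (adjusted p = 0.0492), without MET+LEU replicate 3 (0.0352) or 5 (0.0104), by DESeq2's Wald test (0.0270), and with a filter of 10 counts in each of the 30 libraries (0.0478).

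The developmental chains were higher as well. Myh3 had 1192 to 2050 CPM in MET+LEU (median 1307), and its lowest library lay just above the highest SD library (1190). Its log2 fold change was 0.36 (SE 0.09, adjusted p = 0.00479), and 0.21 without replicate 6 (adjusted p = 1.9e-04). In a fit of the SD and MET+LEU libraries alone, the calls on Myh3 (adjusted p = 0.0654), Myh6 (0.0558) and Myh7b (0.0648) were lost. Myh8 had 732 to 1125 CPM (median 761), above all SD libraries (log2 fold change 0.38, SE 0.07, adjusted p = 4.2e-04, and 0.27 without replicate 6).

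Of the slow and cardiac chains, Myh7 had 194 to 271 CPM in MET+LEU (median 240.5), and the lowest library lay within the SD range. Its log2 fold change was 0.31 (SE 0.08, adjusted p = 0.00541), and 0.30 without replicate 6, which was not the highest library for this gene alone among the 10. Myh6 had 17.3 to 47.2 CPM (median 23.8), and its lowest library overlapped with SD. Its level was 71.3% higher, the largest change of the 8 (log2 fold change 0.78, SE 0.18, adjusted p = 0.00296), and its log2 fold change was 0.54 without replicate 6. Myh7b had 22.1 to 36.1 CPM (median 24.9) and overlapped with SD (log2 fold change 0.27, SE 0.08, adjusted p = 0.0217). Its call was lost without MET+LEU replicate 6 (log2 fold change 0.16, adjusted p = 0.120) and without SD replicate 6 (0.23, adjusted p = 0.0635), and by limma-voom (0.21, adjusted p = 0.0758).

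Of the non-muscle chains, Myh9 had 1861 to 2432 CPM in MET+LEU (median 1924), above all SD libraries, with a log2 fold change of 0.22 (SE 0.04, adjusted p = 3.8e-04), and 0.15 without replicate 6. Myh10 had 52.0 to 76.2 CPM (median 57.1), with a log2 fold change of 0.12 (SE 0.06, adjusted p = 0.160) and 0.03 without replicate 6. The log2 ratio of Myh10 to Myh9 within a library, which compares both responses directly, differed by -0.10 (exact permutation p = 0.0844, adjusted p = 0.158), with overlap.

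MET+LEU vs. 2% HS set the treated cells beside those that had kept their serum. It shares its libraries with the comparisons above. Here 4 genes were higher in MET+LEU (Myh3, Myh2, Myh8 and Myh9) and 2 lower (Myh7 and Myh7b), beside 22.1% of all genes tested that were higher and 20.3% that were lower. Myh7 stayed 21.6% below its level in 2% HS (log2 fold change -0.35, SE 0.08, adjusted p = 5.5e-04), and Myh7b 17.2% below (-0.27, SE 0.08, adjusted p = 0.00675). Myh1 did not pass the test (log2 fold change 0.06, 95% interval -0.05 to 0.18), and its fitted value was -0.03 without replicate 6. Myh4 (0.12, 95% interval -0.06 to 0.31) and Myh6 (0.25, 95% interval -0.09 to 0.58) did not pass either, and both stood at 0.01 without replicate 6. Myh3 was 35.3% higher than in 2% HS (log2 fold change 0.44, SE 0.09, adjusted p = 1.9e-04), and Myh8 24.98% higher (0.32, SE 0.07, adjusted p = 5.9e-04). All libraries of Myh3, Myh8 and Myh9 lay above those of 2% HS, as did those of 11.5% of all genes tested. With single libraries left out, their log2 fold changes were as low as 0.29 (Myh3), 0.20 (Myh8) and 0.14 (Myh9, 0.21 with all libraries). The calls on these genes were kept in each of these fits. The call on Myh2 (log2 fold change 0.36, adjusted p = 0.0184) was lost without MET+LEU replicate 1 (0.0638) or 6 (0.0804) or 2% HS replicate 6 (0.0553), and in a fit of both groups alone (0.0859).

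The combination was also set beside each compound. Against MET, 7 genes were higher (Myh1, Myh3, Myh4, Myh6, Myh7, Myh8 and Myh9), beside 5.54% of all genes tested, and 5 of these passed without MET+LEU replicate 6, where Myh6 and Myh9 did not. Those same calls were lost without MET replicate 1, 2, 3 or 4, and without MET replicate 1 Myh8 was lost as well, which left 4. Against LEU, 3 genes were higher (Myh1, Myh4 and Myh6), beside 4.61% of all genes tested, and 0 without that library (Myh1, adjusted p = 0.0681). The count against LEU was also 0 without LEU replicate 3, 4 or 5 or MET+LEU replicate 2, was 1 without LEU replicate 1 or 6 or MET+LEU replicate 1, and was 6 without MET+LEU replicate 3. Myh1 was 33.6% higher than in MET (log2 fold change 0.42, adjusted p = 2.9e-05) and 15.6% higher than in LEU (0.21, adjusted p = 0.0273). The interaction of MET and LEU, which tests whether the combination departs from the sum of both log2 changes, passed for 0 of 10 genes by edgeR, DESeq2 or limma-voom, beside 0.0503% of all genes tested by edgeR. By edgeR, 3 of the 10 had an unadjusted p under 0.05, as did 8.73% of all genes tested. They were Myh7 (interaction 0.31, 95% interval 0.10 to 0.53, adjusted p = 0.365), Myh4 (0.34, 95% interval 0.08 to 0.60, adjusted p = 0.446) and Myh1 (0.17, 95% interval 0.01 to 0.33, adjusted p = 0.552). With single libraries left out, these interactions were as low as 0.26 (Myh7), 0.22 (Myh4) and 0.07 (Myh1). Without MET+LEU replicate 6, the adjusted p of Myh1 by edgeR was 0.780.

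Isoform shares were computed within each library from the CPM per kilobase of the 8 sarcomeric genes, as a description without a test. In 2% HS, Myh1 made up 54.0% ± 1.24 (SD, n = 6), Myh3 25.5% ± 1.17, Myh8 8.30% ± 0.245, Myh7 5.15% ± 0.420, Myh2 3.74% ± 0.364 and Myh4 2.10% ± 0.165. Myh7b with 0.706% and Myh6 with 0.491% were the least. Transcripts of developmental chains were 33.8% ± 1.02, those of adult fast chains 59.9% ± 1.00 and those of slow and cardiac chains 6.35% ± 0.463.

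In SD the developmental share was 40.8% ± 0.416, the fast share 54.5% ± 0.474 and the slow and cardiac share 4.76% ± 0.247. Every SD library had a lower Myh1 share (47.2 to 48.5%) than any 2% HS library (52.3 to 56.1%) and a higher Myh3 share (30.8 to 31.9% against 23.4 to 26.9%). Shares in MET (developmental 40.9%), LEU (39.5%) and MET+LEU (39.3% ± 1.56) stayed above those in 2% HS. The Myh7 share had means of 3.80% (SD), 3.53% (MET), 3.51% (LEU) and 3.61% (MET+LEU). The Myh6 share had its lowest mean in SD (0.393% ± 0.0588). Its mean in MET+LEU (0.505% ± 0.102) was close to that in 2% HS (0.491%), and the MET+LEU libraries overlapped with both groups. The MET+LEU mean includes replicate 6, whose Myh6 level was 47.2 CPM against 17.3 to 26.4 in the other MET+LEU libraries.

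Length affects the Myh8 share most, because its merged exons (11772 bases) are longer than its longest transcript (6149 bases). Per kilobase of the longest transcript, Myh8 made up 14.1% in 2% HS and 15.8% in SD, Myh1 50.01% and 44.4%, and Myh3 22.7% and 27.9%. The directions between 2% HS and SD were the same for these 3 genes with either length.

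**Figure D3:**
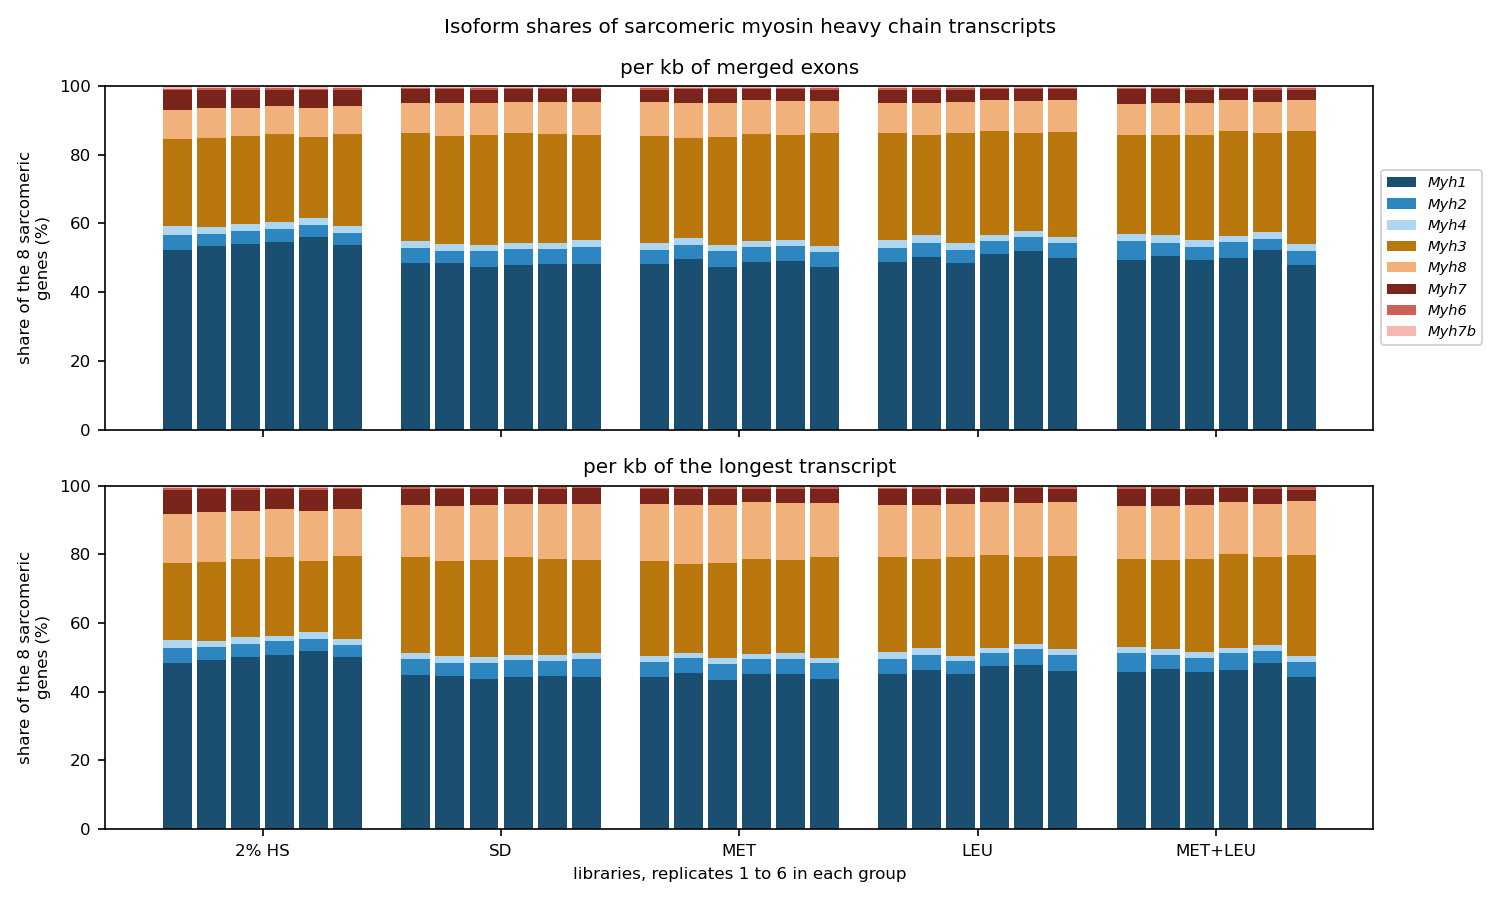
Share of each of the 8 sarcomeric genes in their summed CPM per kilobase (y axis, percent) for each library (x axis, 6 per group), per kilobase of merged exons (top) or of the longest transcript (bottom). Blue colours are adult fast, orange developmental and red slow and cardiac chains; the Myh1 part is taller and the Myh3 part shorter in the 2% HS libraries than in the SD libraries.

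Ratios of the counts of 2 genes within a library do not depend on library scaling. In all, 6 ratios were tested in 5 comparisons with a two-sided exact permutation test of 6 against 6 libraries, with p adjusted over the 30 tests. The smallest p that this design can give is 0.00216. In SD vs. 2% HS, the log2 ratio of Myh3 to Myh1 was higher by 0.47 (-0.68 ± 0.03 against -1.15 ± 0.09, SD, exact permutation p = 0.00216, adjusted p = 0.0130), with no overlap. The ratio of Myh7 to Myh1 was lower by 0.27 on the log2 scale (-3.22 ± 0.09 against -2.95 ± 0.14, exact permutation p = 0.00216, adjusted p = 0.0130), also with no overlap. The ratio of Myh2 to Myh1 was higher by 0.41 (exact permutation p = 0.00433, adjusted p = 0.0216), and its adjusted p was 0.0541 without any 1 of 7 libraries (2% HS replicate 2, 3, 4 or 5, or SD replicate 3, 4 or 6). The ratio of Myh8 to Myh3 differed by -0.14 (exact permutation p = 0.0130, adjusted p = 0.0557). The ratio of Myh4 to Myh1 differed by 0.07 (exact permutation p = 0.351).

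In MET+LEU vs. 2% HS, the ratio of Myh3 to Myh1 remained higher by 0.36 and that of Myh7 to Myh1 lower, with a log2 difference of -0.41 (each with exact permutation p = 0.00216, adjusted p = 0.0130). The ratio of Myh10 to Myh9 was lower, with a log2 difference of -0.15 (exact permutation p = 0.00216, adjusted p = 0.0130). In MET+LEU vs. SD, 0 of 6 ratios passed, with adjusted p between 0.110 and 0.803 by the exact permutation test, and 1 had an unadjusted p under 0.05. That was Myh3 to Myh1 (difference -0.11, p = 0.0368 by exact permutation), which passed without MET+LEU replicate 6 (difference -0.15, adjusted p = 0.0108). For MET vs. SD and LEU vs. SD, 0 of 6 ratios passed (0 and 2 had an unadjusted p under 0.05), and 1 did when 1 library was left out (MET replicate 6, SD replicate 2 or LEU replicate 3).

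**Figure D4:**
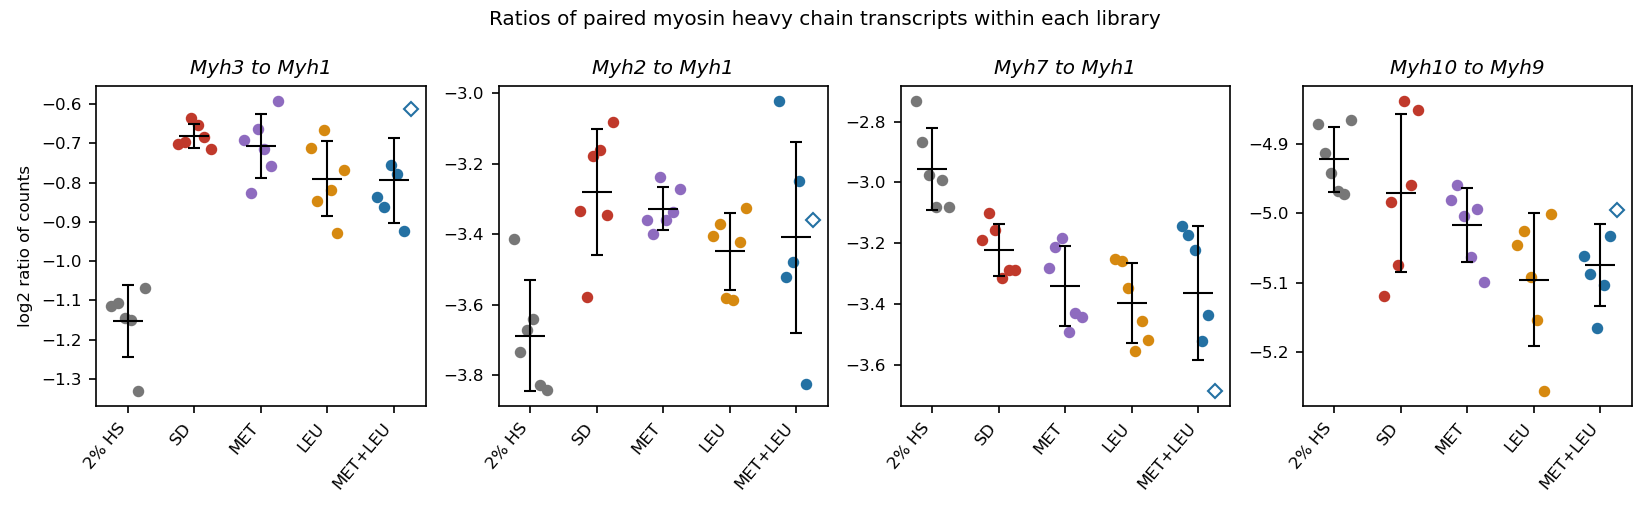
Log2 ratio of the counts of 2 genes (y axis; axes do not start at 0) in each library, by group (x axis), with mean and SD (n = 6); the open diamond is MET+LEU replicate 6. The ratio of Myh3 to Myh1 lies higher, and that of Myh7 to Myh1 lower, in every SD and MET+LEU library than in any 2% HS library.

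Genes that build or control the myosin filament were read from fixed lists. The counts below stand beside 13.9% of all genes tested that were upregulated and 13.9% that were downregulated in SD vs. 2% HS, and beside 10.6% and 7.8% in MET+LEU vs. SD. Sarcomeric light chains and thick filament partners had 9 of 14 tested genes downregulated and 1 upregulated in SD vs. 2% HS (median log2 fold change -0.21, against 0.00 over all genes tested). They included Mybpc2, the fast myosin-binding protein C (log2 fold change -0.997, adjusted p = 3.4e-06), Myl2, the slow and ventricular regulatory light chain (-0.93, adjusted p = 1.7e-09), and Myom1, an M-band crosslinker of myosin (-0.43, adjusted p = 1.7e-10). Mybpc1, the slow myosin-binding protein C, had -0.16 (adjusted p = 0.141), and Mybph 0.00 (adjusted p = 0.983). In MET+LEU vs. SD, 4 of the 14 were upregulated and 2 downregulated (median 0.10), and without MET+LEU replicate 6 they were 6 and 1. Myl2 rose by 0.49 (adjusted p = 0.00123), Myl1, the fast essential light chain, by 0.29 (adjusted p = 2.9e-04) and Mybpc1 by 0.25 (adjusted p = 0.0307), while Mybpc2 had 0.11 (adjusted p = 0.692).

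Of 7 genes for myosin folding and assembly, 2 were downregulated in SD vs. 2% HS. These were Unc45b, the muscle chaperone of the myosin head (log2 fold change -0.26, adjusted p = 1.8e-05), and Smyd1, a muscle methyltransferase needed for thick filament assembly (-0.29, adjusted p = 1.5e-07). Of the 7, 3 were upregulated in MET+LEU vs. SD, the chaperones Hsp90aa1 (0.25), Hsp90ab1 (0.20) and Cryab (0.26), while Unc45b had 0.05 and Smyd1 0.06. Among 10 muscle ubiquitin ligases and adaptors, 2 were upregulated and 4 downregulated in SD vs. 2% HS. Trim63 (MuRF1), which marks myosin heavy chains for breakdown, rose by 0.15 (adjusted p = 0.0214), and Fbxo32 (atrogin-1) fell by 0.13 (adjusted p = 0.0291). The log2 fold changes were largest for Asb2 (-0.53), Trim55 (-0.37), Neurl2 (-0.35) and Fbxw8 (0.19). In MET+LEU vs. SD, 0 of the 10 were upregulated and 2 downregulated (median -0.03), Fbxw8 (-0.19, adjusted p = 0.00411) and Ubr4 (-0.10, adjusted p = 0.0149). Trim63 and Fbxo32 had 0.12 (adjusted p = 0.0815) and 0.09 (adjusted p = 0.165).

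Of 38 regulators of myosin heavy chain transcription, 7 were upregulated and 15 downregulated in SD vs. 2% HS (median -0.09). Among them were Myf6, the myogenic factor of mature fibres (-0.73), Nfatc2, a calcineurin-dependent factor (0.61), and Maf, a transcription factor (-0.49). Between MET+LEU and SD, 4 of the 38 were upregulated and 3 downregulated (median 0.02), and without MET+LEU replicate 6 they were 2 and 2 (median 0.00). Among those passing with and without it were Mef2c (0.24), Ppp3ca, a catalytic subunit of calcineurin (0.24), and Tcf3, an E-protein partner of MyoD (-0.24). Myod1 and Myog had -0.07 and -0.08 and did not pass.

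Partners and regulators of non-muscle myosin were counted beside Myh9 and Myh10. Of 19 tested, 2 were upregulated and 7 downregulated in SD vs. 2% HS, with S100a4, which binds the tail of NM2A, at 0.85, Mylk, the myosin light chain kinase, at -0.62 and Myl9, a regulatory light chain, at -0.45. In MET+LEU vs. SD, 7 of 19 were upregulated and 1 downregulated (median 0.12), and without MET+LEU replicate 6 they were 5 and 1.

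Other genes of the family were scarce. Myh14, the third non-muscle chain, had 8.22 to 10.5 CPM in 2% HS (median 8.81) and 3.71 to 6.83 in SD (median 4.77). Its groups did not overlap, and it was downregulated (log2 fold change -0.88, SE 0.15, adjusted p = 6.0e-06). With MET+LEU its log2 fold change from SD was 0.38 (adjusted p = 0.0722). Myh13 and Myh15 did not pass in either comparison, and Myh11, the smooth muscle chain, reached at most 11 counts in a library. The miRNA genes within Myh6, Myh7 and Myh7b (Mir208a, Mir208b and Mir499) had at most 4 counts. The noncoding 2310065F04Rik of the chromosome 11 cluster fell in SD vs. 2% HS, from a median of 5.89 to 3.01 CPM (log2 fold change -0.85, adjusted p = 7.3e-06), with no overlap.

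Markers of other cell states moved in the same comparisons. In SD vs. 2% HS, 5 of 5 tested fibroblast markers were upregulated, and their summed CPM was 3960 to 4372 in 2% HS and 6713 to 7124 in SD. The sixth, Thy1, had at most 7 counts in any library. Of 12 myotube markers, 2 were upregulated and 5 downregulated in SD vs. 2% HS. Undifferentiated or reserve myoblast markers had 3 of 9 upregulated and 3 downregulated there, and cycling cell markers 3 of 10 upregulated and 0 downregulated. Between MET+LEU and SD, 2 of the 5 fibroblast markers were upregulated and 2 downregulated, and 1 of the 9 myoblast markers was upregulated and 0 downregulated. Of 10 cycling cell markers, 9 were downregulated in MET+LEU vs. SD, with a summed CPM of 308 to 400 in SD and 248 to 285 in MET+LEU, and with LEU 5 of 10 were (270 to 298), beside 0.321% of all genes tested. Of the 12 myotube markers, 3 were upregulated in MET+LEU vs. SD, the fast troponins Tnnt3 (0.82) and Tnnc2 (0.98) and the calsequestrin Casq2 (0.19), and 2 downregulated, Mymx (-0.32) and Atp2a1 (-0.13, adjusted p = 0.110 without MET+LEU replicate 6). The median of the 12 was -0.01, and 0.01 without that library. Ckm (-0.01), Acta1 (-0.04) and Ttn (-0.01) did not pass. Of 4 tested smooth muscle markers, 3 were downregulated in SD vs. 2% HS (Acta2, Cnn1 and Smtn), with a summed CPM of 2780 to 2997 in 2% HS and 2098 to 2674 in SD, beside the lower Mylk and Myl9. The part of these markers in the results on myosin heavy chains was not tested.

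The genes whose levels deviated from their group means most like those of a member were found by Pearson's r over all 30 libraries, as a description, among the 12688 genes whose mean log2 CPM reached 1. For Myh1 they were the fast troponin Tnnt3 (r = 0.88), the calcium-binding Hrc (0.88) and the ribosomal Rpl14 (0.86). Myh3 had the cardiac and embryonic troponin Tnnt2 (0.96), Hrc (0.93) and Myo10 (0.92). Myh7 had myoglobin, Mb (0.83), the slow Mybpc1 (0.81) and Cmya5 (0.77). Myh9 had Rpl19 (0.91), Tnni2 (0.91) and Stip1 (0.91), and Myh10 had Golga4 (0.85), Brd7 (0.83) and Smarce1 (0.83). These points share the library, and MET+LEU replicate 6 weighed on most of them. Without it, r was 0.73 for Tnnt3 with Myh1, 0.88 for Tnnt2 with Myh3, 0.90 for Mb with Myh7, 0.81 for Rpl19 with Myh9 and 0.68 for Golga4 with Myh10.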

How the data were processed

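Total RNA of C2C12 myotubes was sequenced in 5 groups of 6 libraries, mapped to groups by their GEO labels. The authors depleted ribosomal RNA, prepared stranded libraries and sequenced 150 × 150 bases. The submitters' processing notes name cutadapt 1.16, STAR 2.7.6a, featureCounts 1.6.3, DESeq2 1.30.1 and GRCm38. The annotation release, strand setting and treatment of reads that match several genes are not given in the sources used here. The deposited values are raw counts per gene, not normalized. Of 55487 identifiers, 55141 matched GENCODE M21, which gave symbols, coordinates and lengths, and 346 with 0.0268% of counts did not. RefSeq (GRCm38.p6) gave promoter windows for all 10 genes.

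Counts were fitted in R 4.3.3 with edgeR 4.0.16 (filterByExpr, minimum count 10 and minimum total 15, which left 15907 genes, TMM scaling, a mean for each group over all 30 libraries, robust quasi-likelihood F test). P-values were adjusted by Benjamini-Hochberg over all genes tested, with a threshold of 0.05. SE is the absolute log2 fold change over the square root of F, and 95% intervals use the normal quantile of this SE. Ratios of raw counts were compared with an exact permutation test (scipy 1.17.1). The count tests and the permutation test were tested on simulated data. In simulated counts for SD vs. 2% HS with 200 planted changes, edgeR called 130 of them, DESeq2 137 and limma-voom 128. The false calls were 7, 11 and 3. A gene that did not pass can therefore still have changed. Depth was 12784960 to 19604103 counts. Alternatives were DESeq2 size factors, upper-quartile scaling, DESeq2 1.42.0 (Wald test), limma 3.58.1 voom with sample quality weights, 2 other filters, a fit restricted to the 2 groups of a comparison, a block for the replicate number, other lengths and denominators for shares, 0.5 counts added for ratios, and leaving out each library. The fits of SD vs. 2% HS, MET vs. SD and LEU vs. SD without MET+LEU replicate 6 were chosen after seeing the data.

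The members and gene lists were chosen with earlier results of these data known. The rule for named genes was all 10 members, up to 4 genes per list that passed, by size of log2 fold change in SD vs. 2% HS or MET+LEU vs. SD (all of a list with fewer than 8 tested genes), Unc45b, Smyd1, Mybpc1, Mybpc2, Mybph, Trim63 and Fbxo32, and the 3 genes most like Myh1, Myh3, Myh7, Myh9 and Myh10. Myl1, Mef2c, Ppp3ca, Tcf3, Myod1, Myog and the markers with values were added once their values were known. Some genes under this rule are not reported here. The symbol Myl12b matched 2 identifiers, so 18 listed partners of non-muscle myosin gave 19 tested genes.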

Additional observations from a re-analysis of the deposited data

Results flagged for a closer look

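In a group of 6 libraries, a library was marked where its gap to the nearest other library, divided by the range of the group, exceeded Dixon's 95% critical value for 6. Of 50 groups of 6 (10 genes in 5 groups), 9 held such a library, and chance marks about 1 in 20. In MET+LEU, replicate 6 was marked for 8 genes. Its CPM was 3132 for Myh1 (other libraries 2218 to 2445), 2050 for Myh3 (1192 to 1345), 127.7 for Myh4 (79.8 to 97.1), 47.2 for Myh6 (17.3 to 26.4), 36.1 for Myh7b (22.1 to 25.99), 1125 for Myh8 (732 to 831), 2432 for Myh9 (1861 to 1970) and 76.2 for Myh10 (52.0 to 58.0). Myh2 and Myh7 were not marked in this library. The library is also the one with the highest shares of nuclear (5.85%) and mitochondrial (7.64%) ribosomal RNA, and the part of this in its levels was not tested. In 2% HS, replicate 1 was marked for Myh4, with 98.2 CPM against 79.6 to 85.3 in the other libraries.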

How the results depend on the processing

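All 5 downregulated genes in SD vs. 2% HS passed under each alternative other than the lack of a filter and the single libraries named for Myh6. Counts of called genes moved by over 1.5 times in these cases. With only the groups compared, they were 3 in LEU vs. SD, 5 in MET+LEU vs. SD, 3 in MET+LEU vs. MET and 0 in MET+LEU vs. LEU, where they were also 1 with DESeq2 size factors, 1 with upper-quartile scaling, 5 with DESeq2's Wald test and 0 with limma-voom (main count 3). Leaving out 1 library gave 4 to 5 called genes in SD vs. 2% HS, 0 to 3 in LEU vs. SD, 7 to 9 in MET+LEU vs. SD, 5 to 6 in MET+LEU vs. 2% HS, 4 to 8 in MET+LEU vs. MET and 0 to 6 in MET+LEU vs. LEU. The sign of small log2 fold changes that had not passed turned with limma-voom, for Myh4 in MET vs. SD (0.0035), Myh1 (-0.017) and Myh10 (-0.011) in MET+LEU vs. 2% HS, and the interactions of Myh7b (-0.0053) and Myh9 (-0.0035). The sign of small values also turned when single libraries were left out. Their ranges were -0.022 to 0.093 for Myh2 and -0.032 to 0.0019 for Myh9 in SD vs. 2% HS. In MET vs. SD they were -0.090 to 0.017 (Myh2), -0.021 to 0.042 (Myh3), -0.054 to 0.012 (Myh4), -0.0077 to 0.058 (Myh7b) and -0.00075 to 0.044 (Myh10). They were -0.032 to 0.088 for Myh1 and -0.032 to 0.092 for Myh10 in MET+LEU vs. 2% HS, and -0.023 to 0.129 for Myh7b in MET+LEU vs. LEU. Interactions had -0.048 to 0.103 (Myh7b), -0.010 to 0.131 (Myh8) and -0.013 to 0.082 (Myh9). Log2 ratios had -0.047 to 0.012 for Myh4 to Myh1 in MET+LEU vs. SD and -0.00061 to 0.040 for Myh8 to Myh3 in LEU vs. SD. The causes were not tested. The difference in Myh3 share, SD minus 2% HS, was 5.96 percentage points, and 4.25 with Myh9 and Myh10 in the denominator. Same-numbered libraries of different groups did not deviate together (mean correlation of deviations 0.0157, over 0.1 in 2 of 60 pairs), so no pairing by number was detected. With the replicate block, 5 genes were called in SD vs. 2% HS, 0 in MET vs. SD, 1 in LEU vs. SD, 8 in MET+LEU vs. SD, 6 in MET+LEU vs. 2% HS, 8 in MET+LEU vs. MET, 3 in MET+LEU vs. LEU and 0 in the interaction. Sign-flip permutation of ratios within blocks left 0 ratios passing in MET+LEU vs. 2% HS and 0 in SD vs. 2% HS. It cannot decide whether these ratios differ, because its smallest p is 0.0312. After adjustment, a ratio could pass only if most of the ratios tested shared that p. Myh3 to Myh1 and Myh7 to Myh1 had this smallest p in each of these comparisons (adjusted p = 0.0781 by sign-flip permutation), with no overlap. Depth limits Myh6, with 164 to 583 counts per library, most.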
